A study of Mus musculus with 12 samples.

Results

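The hearts of mice carrying a transgene for CCRR were compared with those of wild-type mice after myocardial infarction (MI). CCRR is the cardiac conduction regulatory RNA, a long non-coding RNA. The comparison takes 6 of the 12 arrays of the series, chosen by their subgroup label. The group called TG+MI here holds 3 transgenic hearts after infarction and the group called WT+MI holds 3 samples of infarcted heart whose subgroup label is MI. Their strain label is that of the wild-type hearts, but only 1 of the 3 titles carries WT, so their wild-type genotype rests on the strain label and on that title. The other 6 arrays are 3 wild-type hearts (WT) and 3 transgenic hearts (TG) without infarction, and they serve as the reference for both groups. All are mouse hearts sampled fresh from animals with normal food and water. The strain is C57/BL6 for WT and WT+MI and is not given for TG and TG+MI in the sources used here, so strain and transgene cannot be told apart. The promoter and insertion site of the transgene, the number of founder lines, the age of the animals, the time after infarction, the region of the heart and whether hearts were pooled are likewise not given in the sources used here. No label states whether each array comes from a different animal, so p-values here measure only how far these arrays spread, and part of that spread may be technical. The title of the series names the question: whether CCRR weakens inflammation after infarction through Toll-like receptor signalling.

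After a coronary artery is blocked, dying cardiomyocytes release molecules that Toll-like receptors (TLRs) sense. These receptors signal through the adaptor MyD88 to NF-kB, which switches on genes of cytokines and chemokines. Neutrophils arrive first and monocytes follow, clear the debris and turn into macrophages, and fibroblasts then lay down the collagen scar. Surviving cardiomyocytes lower their repolarising potassium channels and their fat-burning enzymes, which is the usual remodelling of an infarcted heart.

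Each level below is the log2 processed Cy3 signal of a gene's probe minus the 75th percentile of its array, so 0 is a fairly bright probe and a step of 1 is a doubling. A probe counts as measured where Feature Extraction marked it well above background. Of 36967 genes on the array, 19755 were tested, and 17342 of them were well above background on all 6 arrays of infarcted hearts. Between 47.0% and 55.2% of probes were well above background on an array, and no spot was saturated. The 3 TG+MI arrays had the highest shares, 54.6% to 55.2%, against 48.7% to 50.9% in WT+MI, and the part of this gap in the results was not tested. No probe of the array is named for CCRR, so the transgene itself could not be checked. Y chromosome genes were measured on each of the 12 arrays, and Xist on 0. The 3 WT+MI arrays lie on the first slide and the 3 TG+MI arrays on the second, so slide and group share no level in this comparison. Only TG, with TG 1 and TG 2 on the first slide and TG 3 on the second, ties the slides together. TG+MI 3 and WT+MI 1 lay furthest from the other arrays of their groups. TG+MI 3 differed by more than 2 log2 units from the mean of the other TG+MI arrays at 79 genes upwards and 102 downwards, and WT+MI 1 did so from its own group at 77 upwards and 44 downwards. WT+MI 3 was close to it, with 33 upwards and 73 downwards. On the first principal component, which held 55.4% of the variance, WT+MI lay at 107, 69.95 and 57.1, TG+MI at 7.84, 36.03 and 4.30, and the arrays without infarction between -52.0 and -41.6. The TG+MI hearts therefore lay between uninfarcted hearts and WT+MI hearts on this axis, and the groups did not overlap.

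Lower in TG+MI than in WT+MI hearts were 10 of 18 neutrophil markers, 13 of 36 monocyte and macrophage markers, 10 of 35 chemokine genes and 8 of 27 cytokine genes. Higher were 8 of 20 potassium channel genes and 6 of 19 genes of ketone and branched-chain amino acid use. Calprotectin gene S100a8 was 8.16-fold and the cytokine gene Il1b 8.27-fold lower, while the potassium channel gene Kcnip2 was 2.68-fold and the fat metabolism regulator gene Ppara 2.28-fold higher. With limma, 2066 of 19755 genes passed an adjusted p of 0.05, which is 10.5% of the genes tested. Of these, 1180 were higher in TG+MI (5.97%) and 886 were lower (4.48%). The lower genes moved further: 441 fell by at least 1 log2 unit and 239 rose by as much. The 3 values of each group did not overlap for 6561 genes, 33.2% of those tested, with TG+MI above for 20.6% and below for 12.6%. The median difference over all genes tested was 0.08. With arrays centred on their median in place of the 75th percentile, 2562 genes were higher and 677 lower, so that 79.1% of the calls were upward in place of 57.1%.

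The number of calls depended on single arrays and on the slide. The smallest limma adjusted p was 0.0153, so every call lies between that value and the threshold of 0.05. Leaving out TG+MI 1 left 0 genes, with 5168 at an unadjusted p under 0.05 (limma), leaving out TG+MI 3 left 3, leaving out WT+MI 1 left 46 and leaving out WT+MI 2 left 665, whereas 3428 passed without TG+MI 2. Arrays without infarction moved the count too, since they enter the estimate of the spread: it was 792, 515 and 590 without WT 1, 2 and 3, and 1001 and 1179 without TG 2 and TG 3. Without both TG+MI 3 and WT+MI 1, a setting chosen after seeing the data, 3 genes passed. When only the 6 arrays of infarcted hearts were fitted, 1 gene passed, and 4531 had an unadjusted p under 0.05 (limma). With the slide as a fixed block, 0 genes passed with limma, 1464 had an unadjusted p under 0.05, and 2063 of the 2066 genes had the same direction. The 2066 genes were called on these same arrays, so a kept direction is no independent check. Every count in the text therefore describes these 12 arrays together. Beside the main lists, the median is also given with the slide as a block and without TG+MI 3 and WT+MI 1.

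**Figure D1:**
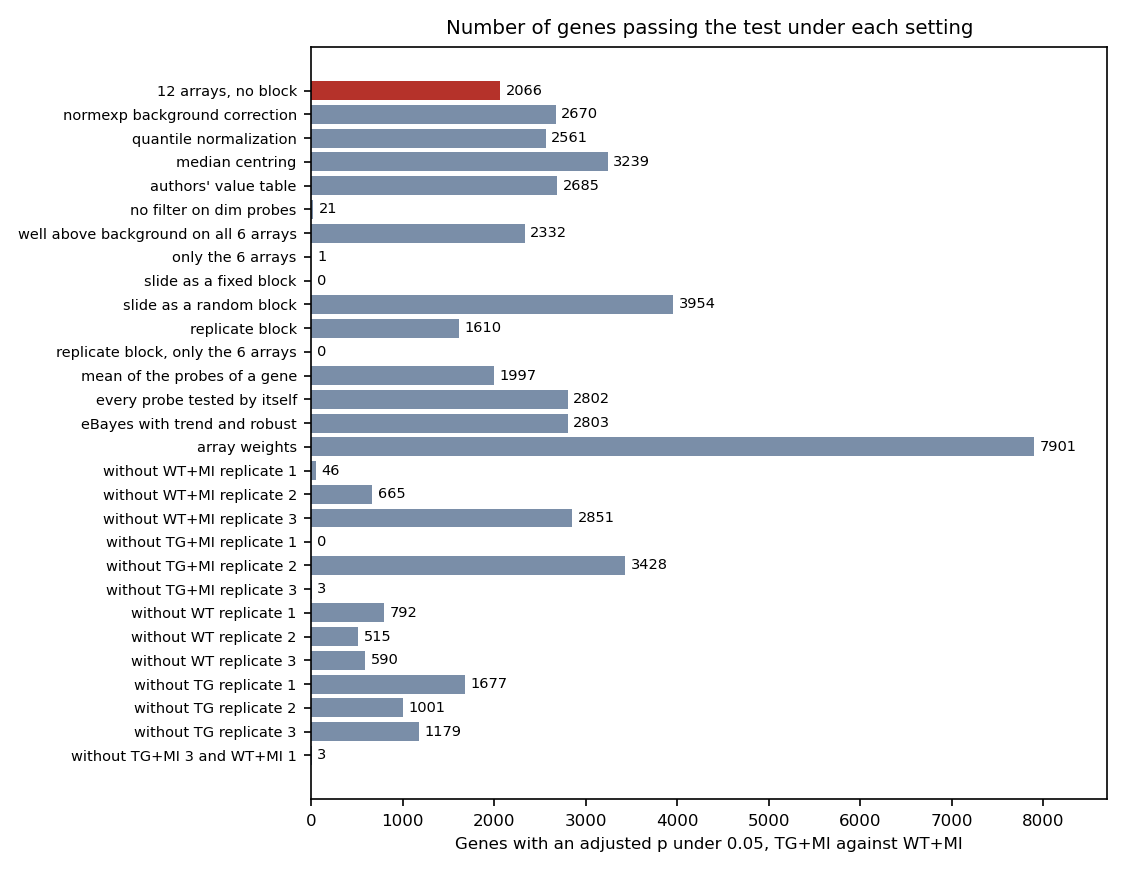
Number of genes with an adjusted p under 0.05 in TG+MI against WT+MI (horizontal axis) under each setting (one bar per setting, with its count printed beside it). The bars run from 0 genes, with the slide as a fixed block, without TG+MI 1 or with the replicate block on only the 6 arrays, to 7901 with array weights, against 2066 in the fit of all 12 arrays.

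Neutrophils are short-lived white cells that enter an infarct first and carry calprotectin, granule enzymes and, in mice, a cluster of stefin A protease inhibitors. Their list had the lowest median of the 47 lists followed here, leaving aside the sex-linked genes, for which no median was taken. S100a8, a calprotectin subunit (probe at mm9 chr3:90473778-90473837), was at 5.52, 4.10 and 4.45 in WT+MI 1 to 3 and at 1.04, 2.41 and 1.54 in TG+MI 1 to 3. All 3 TG+MI hearts lay below all WT+MI hearts, and TG+MI 1 was the lowest. The difference was -3.03 ± 0.48 (SE), an 8.16-fold lower level (limma adjusted p = 0.0221). Each SE here and below is that of the limma fit, with 3 arrays a group. It is estimated from the spread within all groups, including those without infarction. It is therefore not the spread of the infarcted hearts alone. S100a9, the partner of S100a8, was at 7.47, 6.33 and 6.67 in WT+MI and at 3.59, 4.84 and 3.85 in TG+MI. The groups did not overlap, and the fall was 6.63-fold. Both calprotectin genes were also low in transgenic hearts without infarction. S100a9 averaged 1.99 ± 0.72 (SD, n = 3) in WT and -0.10 ± 0.41 in TG, a difference of -2.08 (limma adjusted p = 0.0370).

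Cxcr2, the receptor that draws neutrophils along CXC chemokines, was at 1.11, -0.13 and 0.13 in WT+MI and at -3.24, -1.51 and -3.21 in TG+MI. The groups did not overlap, TG+MI 2 was the highest of its group, and the fall was 8.14-fold (limma adjusted p = 0.0221). Uninfarcted hearts were near the floor of the array at -6.57 ± 0.13 in WT and -6.28 ± 0.18 in TG (SD, n = 3). The stefin A genes fell by more. Stfa2l1 went from 1.67, 0.43 and 0.50 to -3.62, -1.41 and -3.16 (12.1-fold lower), and its neighbours Cstdc4 and Stfa2 fell 12.2-fold and 9.72-fold. Stfa1 was well above background in all WT+MI hearts and in 0 TG+MI hearts, and was at least 5.41-fold lower. Such a bound sets the mean of the bright group against the lowest signal that counts as above background. The stefin A genes are near-identical copies, and their probes may not tell the members apart. Mirt2, a long non-coding RNA known from infarcted hearts, fell 10.4-fold, and Fpr1, a formyl peptide receptor that guides neutrophils to dying cells, fell 7.89-fold. Wfdc21, a small whey acidic domain protein, fell 8.05-fold. For Slpi, a secreted inhibitor of neutrophil elastase, the probe that represents the gene fell 8.71-fold, but its other measured probe differed by 0.73.

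Of 22 neutrophil markers listed, 18 were tested, 10 were lower in TG+MI and 0 were higher, with a median difference of -2.26. The median was -1.72 with the slide as a block and -1.87 without both TG+MI 3 and WT+MI 1, while the count of lower markers went to 0 with the slide as a block and to 1 without those arrays. Lcn2, a siderophore-binding granule protein that cardiomyocytes and macrophages can also make, did not pass the test: 5.33, 5.87 and 5.70 in WT+MI against 5.08, 5.16 and 4.50 in TG+MI. The summed linear level of the neutrophil markers was 275 to 409 in WT+MI and 137 to 151 in TG+MI, in multiples of the array's 75th percentile. Ltf, which encodes the granule protein lactoferrin, was above background on none of these arrays. These are whole hearts or pieces of them, so fewer neutrophils and less RNA per neutrophil cannot be told apart.

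**Figure D2:**
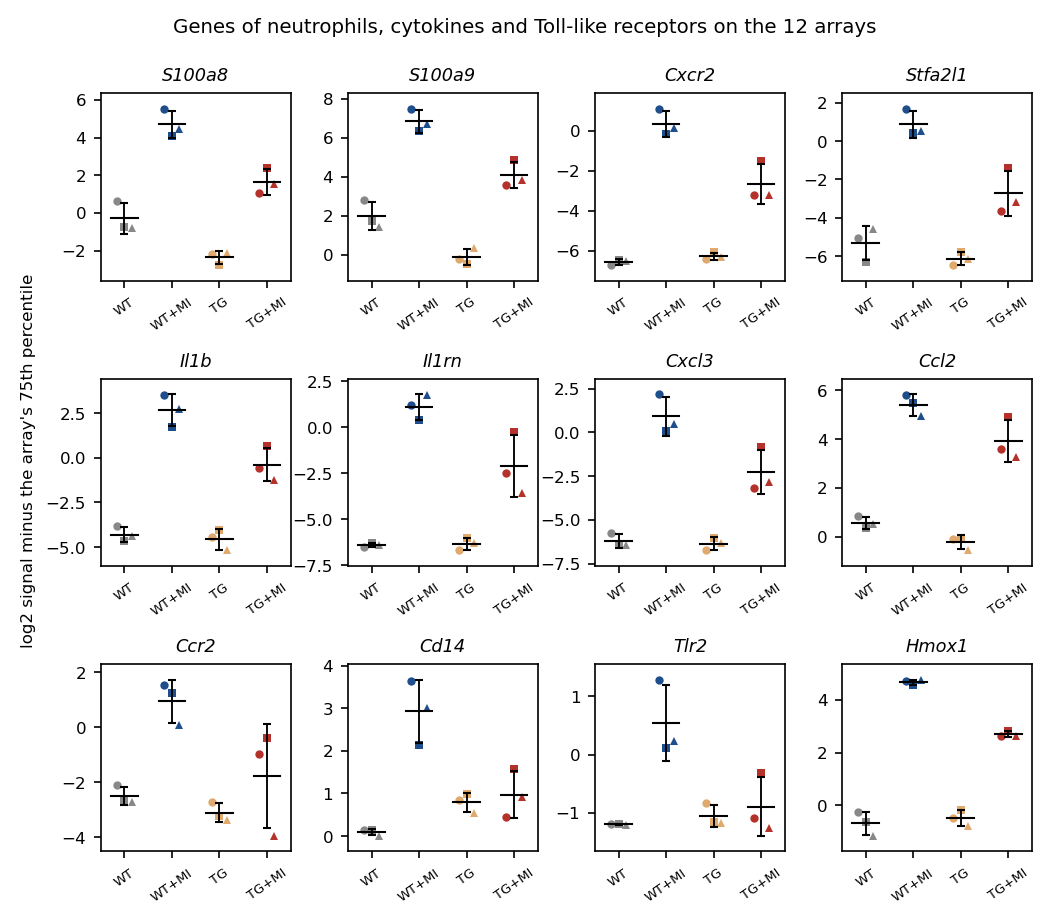
Levels of 12 inflammatory genes on the 12 arrays (vertical axis, log2 signal minus the array's 75th percentile; groups along the horizontal axis). Points are arrays with circle, square and triangle for replicates 1, 2 and 3, lines are group means and bars are SDs; for S100a8 the TG+MI hearts lie between 1.04 and 2.41, below WT+MI at 4.10 to 5.52.

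Some of the cytokines and chemokines that recruit these cells fell too. Il1b, the main inflammatory cytokine of the infarct (probe at mm9 chr2:129190347-129190406), was at 3.52, 1.74 and 2.77 in WT+MI and at -0.55, 0.65 and -1.22 in TG+MI, without overlap. It fell 8.27-fold (-3.05 ± 0.54 SE, limma adjusted p = 0.0233), and its 3 probes gave differences of -3.05 to -2.87. Il1rn, the natural antagonist of the interleukin 1 receptor, fell 9.30-fold, from 1.23, 0.38 and 1.74 to -2.50, -0.25 and -3.55. The decoy receptor Il1r2 fell 5.64-fold. The agonist, the antagonist and the decoy of the interleukin 1 system were thus all lower in TG+MI. Osm, the cytokine oncostatin M, fell 5.22-fold. Of 27 cytokine genes tested from 34 listed, 8 were lower and 1 was higher, with a median of -0.77 (-0.74 with the slide as a block, -0.54 without TG+MI 3 and WT+MI 1). The 1 higher gene was Il11ra1, a receptor for interleukin 11, at 0.57 above WT+MI.

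Il6 and Tnf, the inflammatory cytokines interleukin 6 and tumour necrosis factor, did not pass the test. Il6 was at 2.81, 1.13 and 0.04 in WT+MI and at -0.40, 0.58 and 2.07 in TG+MI, so the groups overlapped and the spread within each exceeded the difference of -0.58. The brighter probe of Tnf was at -1.24, -1.19 and -0.68 in WT+MI and at -1.001, -1.06 and -0.71 in TG+MI, with overlap. Its other probe, above background on 2 WT+MI arrays and 1 TG+MI array, was at -3.04, -4.03 and -0.87 against -5.78, -4.14 and -5.69. The probes of Tnf do not share a direction, so no direction is given for the gene.

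Among chemokines, 35 of 39 listed genes were tested, 10 were lower and 0 higher, with a median of -1.12 (-0.94 with the slide as a block, -0.51 without TG+MI 3 and WT+MI 1). By role, 3 of 13 CXC chemokines, 4 of 14 CC chemokines and 3 of 8 receptors were lower. Cxcl3, a neutrophil attractant that binds Cxcr2, was at 2.18, 0.10 and 0.49 in WT+MI and at -3.15, -0.84 and -2.84 in TG+MI (9.20-fold lower, limma adjusted p = 0.0281). Cxcl2, another Cxcr2 ligand, fell 6.51-fold and was above background on only 2 TG+MI arrays. Cxcl5, a further ligand of this kind, was at 4.39, 2.97 and 3.11 against 1.71, 3.07 and 1.92, and did not pass. Ccl2, the chemokine that calls monocytes from bone marrow, fell 2.77-fold, from 5.79, 5.48 and 4.93 to 3.60, 4.92 and 3.27, and TG+MI 2 lay just below the lowest WT+MI heart.

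The sequences before the start sites of 5 genes lower in TG+MI, picked because they hold a match, are shown since TLR signalling acts on such promoters through NF-kB, and C/EBP factors act on many myeloid genes. Tlr2, a receptor of this pathway, is among them. Each run holds the 250 bases before the annotated start in the RefSeq table for GRCm38.p6, written 5′ to 3′ on the strand of the gene. Capitals mark a match to the NF-kB consensus or to the C/EBP letters TTGCNNAA on either strand. Where the NF-kB consensus was matched on both strands, the matches overlap in all but 1 base and are marked as a single run. Cxcl3 lies at chr5:90785851-90786100 on the plus strand, Cxcl2 at chr5:90903649-90903898 on the plus strand, Tlr2 at chr3:83841609-83841858 on the minus strand, Clec4e at chr6:123289872-123290121 on the minus strand and S100a9 at chr3:90695722-90695971 on the minus strand.
Cxcl3: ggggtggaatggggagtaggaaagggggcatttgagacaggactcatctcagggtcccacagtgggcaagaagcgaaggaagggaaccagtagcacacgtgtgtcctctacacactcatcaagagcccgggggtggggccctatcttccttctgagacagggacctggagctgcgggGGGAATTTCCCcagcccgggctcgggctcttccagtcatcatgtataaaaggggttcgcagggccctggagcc
Cxcl2: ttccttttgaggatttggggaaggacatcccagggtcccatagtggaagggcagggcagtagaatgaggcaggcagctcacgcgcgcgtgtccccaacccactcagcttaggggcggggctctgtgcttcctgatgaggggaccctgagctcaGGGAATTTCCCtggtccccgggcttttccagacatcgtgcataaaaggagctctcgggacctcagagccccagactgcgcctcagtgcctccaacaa
Tlr2: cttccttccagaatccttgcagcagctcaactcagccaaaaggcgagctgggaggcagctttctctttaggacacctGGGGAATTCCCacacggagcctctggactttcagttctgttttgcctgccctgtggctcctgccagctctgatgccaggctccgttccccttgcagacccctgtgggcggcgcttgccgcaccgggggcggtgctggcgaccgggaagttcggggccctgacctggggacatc
Clec4e: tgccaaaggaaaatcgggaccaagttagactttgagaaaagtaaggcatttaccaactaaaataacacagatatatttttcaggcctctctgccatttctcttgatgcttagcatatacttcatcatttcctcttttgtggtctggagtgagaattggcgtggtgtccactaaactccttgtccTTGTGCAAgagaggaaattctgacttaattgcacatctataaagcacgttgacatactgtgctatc
S100a9: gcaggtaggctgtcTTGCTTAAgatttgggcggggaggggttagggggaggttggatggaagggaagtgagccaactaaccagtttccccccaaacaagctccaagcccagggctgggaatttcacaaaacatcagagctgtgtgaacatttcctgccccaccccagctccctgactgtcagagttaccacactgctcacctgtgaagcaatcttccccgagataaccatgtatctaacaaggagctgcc

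The marked NF-kB matches began 73 bases before the start of Cxcl3, 97 bases before that of Cxcl2 and 173 bases before that of Tlr2. The C/EBP matches began 66 bases before the start of Clec4e and 236 bases before that of S100a9. The windows of Il1b, S100a8, Cxcr2, Fpr1 and Acod1, which are also lower, held no match to any of the 3 motifs searched. These letters are not rare. Of 27025 genes with a window, 8.23% held the NF-kB consensus, 10.8% the C/EBP letters and 7.82% the AP-1 letters TGANTCA. Among the genes tested, the NF-kB consensus stood in the windows of 10.3%, in 70 of 582 (12.03%) of the genes lower in TG+MI and in 77 of 763 (10.1%) of those higher. The shares for C/EBP were 9.65% of tested genes, 14.1% of lower and 9.83% of higher genes, and for AP-1 5.99%, 9.79% and 6.42%. The consensus was chosen after shares for a narrower form of the NF-kB letters had been seen, in which lower and higher genes lay further apart. A match is a run of letters and not a measured binding site.

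Of 36 monocyte and macrophage markers listed, all were tested, 13 were lower and 0 higher, with a median of -1.06 (-1.09 with the slide as a block, -0.52 without TG+MI 3 and WT+MI 1). Lyve1, Folr2 and Timd4, which mark macrophages resident in the heart, differed by 0.22, 0.29 and -0.30 and did not pass. Ccr2, the receptor for Ccl2 that marks recruited monocytes, was at 1.55, 1.23 and 0.07 in WT+MI and at -0.96, -0.40 and -3.94 in TG+MI, where TG+MI 3 was far below the others. It fell 6.58-fold (limma adjusted p = 0.0472). Arg1, an arginase of reparative macrophages, fell from 3.61, 2.20 and 1.89 to -1.16, 1.10 and -4.90, with a wide spread in TG+MI (SD 3.03, n = 3). The pattern-recognition lectin Clec4e fell 7.58-fold and its relative Clec4d 5.54-fold. Acod1, which makes the antibacterial metabolite itaconate in activated macrophages, fell 10.8-fold, from 1.60, -0.06 and 2.26 to -2.52, -0.61 and -3.36. Spp1, which encodes osteopontin, was at 4.97, 4.43 and 4.58 in WT+MI and at 1.40, 3.73 and -2.81 in TG+MI. It did not pass (limma adjusted p = 0.0709), and the TG+MI hearts differed from each other by more than the groups did. The summed level of the macrophage markers was 307 to 477 in WT+MI and 241 to 290 in TG+MI, and those of both myeloid cell types moved with the cytokines and chemokines; their part in the result was not tested.

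TLR signalling genes were examined by role, since the study is about this pathway. Over the whole list, 51 of 53 genes were tested, 9 were lower and 1 was higher, with a median of -0.25 both without and with the slide as a block and -0.13 without TG+MI 3 and WT+MI 1. The receptors and co-receptors had the lowest median of the 4 roles, -0.53, with 5 of 14 lower and 0 higher. Tlr2, which senses lipoproteins and products of damaged tissue, was at 1.28, 0.11 and 0.23 in WT+MI and at -1.10, -0.32 and -1.26 in TG+MI (2.70-fold lower, limma adjusted p = 0.0307). Its level in TG+MI, -0.89 ± 0.50 (SD, n = 3), was close to -1.19 ± 0.01 in WT and -1.05 ± 0.19 in TG. Cd14, the co-receptor that hands ligands to Tlr2 and Tlr4, was at 3.63, 2.15 and 3.00 against 0.45, 1.56 and 0.91, a 3.88-fold fall. Tlr5, Tlr6 and Tlr13, which sense flagellin, lipopeptides and bacterial RNA, fell 5.08-, 3.87- and 2.80-fold, and Tlr5 was above background on only 2 TG+MI arrays. Tlr4, the receptor for endotoxin and several danger signals, was at 1.47, 1.31 and 1.10 in WT+MI and at 0.94, 0.97 and 0.91 in TG+MI. The groups did not overlap, but the difference of -0.35 ± 0.12 (SE) did not pass (limma adjusted p = 0.0829).

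Below the receptors the differences were smaller. Of 14 adaptors and kinases, 3 were lower and 1 was higher. Myd88, the shared adaptor, was at 2.75, 2.56 and 2.44 in WT+MI and at 1.82, 2.33 and 1.86 in TG+MI (1.49-fold lower, limma adjusted p = 0.0379). The kinase gene Irak1 was 1.26-fold higher, and the adaptor gene Traf3 and the trafficking chaperone gene Unc93b1 were lower by -0.46 and -0.88. Of 11 transcription factor genes, 0 were called in either direction (limma, 6 at an unadjusted p under 0.05). Nfkb1, a subunit of NF-kB, was at 2.67, 2.40 and 2.30 against 2.07, 2.14 and 2.25. Of 12 genes of brakes on the pathway, 1 was lower, Nfkbie, an inhibitor of NF-kB, at -1.19. Nfkbia, the inhibitor that NF-kB itself induces, overlapped between groups: 5.08, 4.17 and 4.16 against 3.49, 3.62 and 4.65. The marker sums of neutrophils and macrophages, which express these receptors, moved with them, and their part in the result was not tested.

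**Figure D3:**
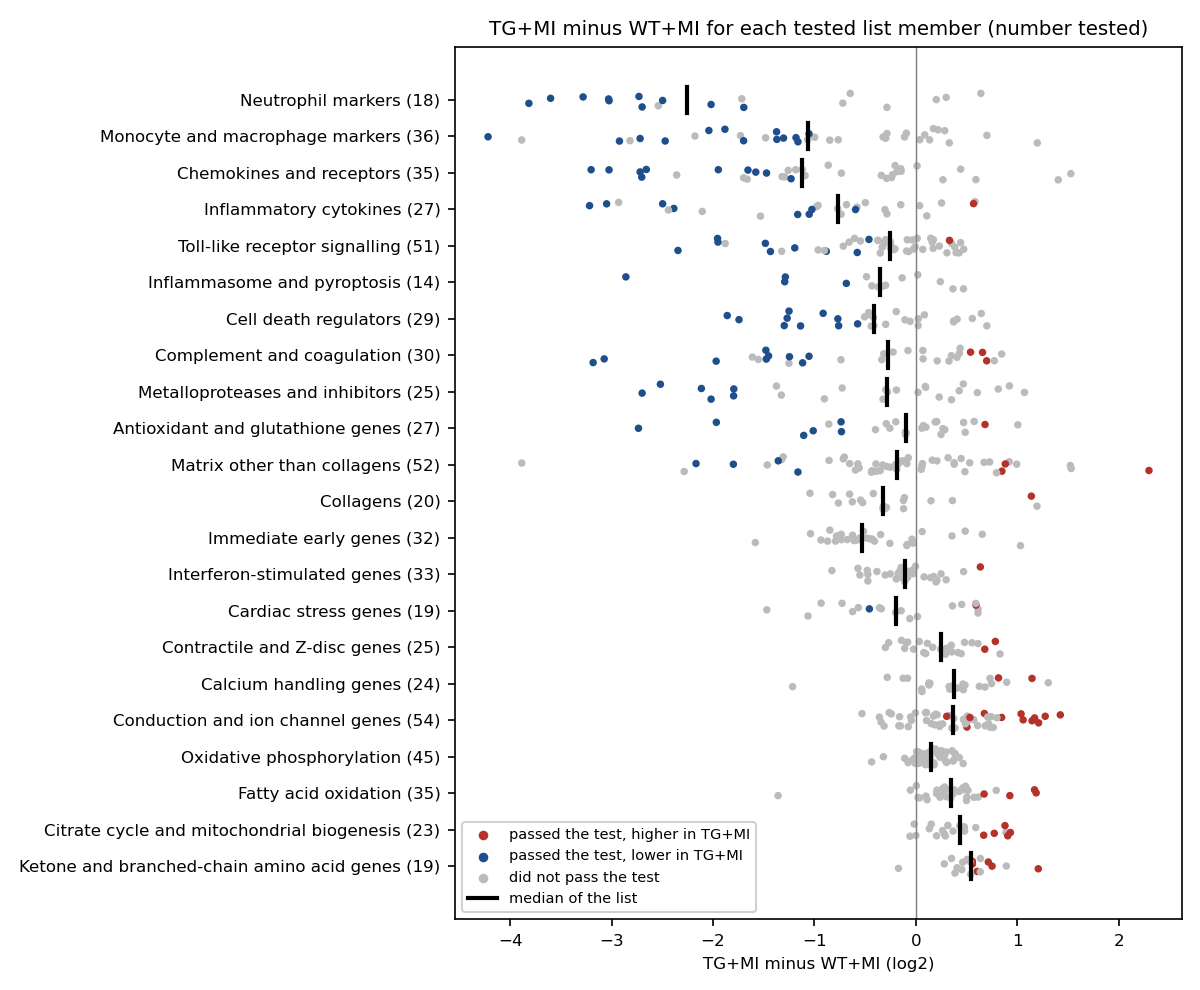
TG+MI minus WT+MI (log2, horizontal axis) for each tested member of 22 gene lists (rows, with the number tested); points are genes, coloured by whether they passed the test, and the black line is the list's median. Neutrophil markers have the lowest median at -2.26, and the lists of ketone and branched-chain amino acid genes and of the citrate cycle lie above 0 at 0.54 and 0.43.

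In the inflammasome list, whose members drive inflammatory cell death, 4 of 14 tested genes were lower and 0 higher. The lower genes were Mefv, Aim2, Naip2 and Gsdmd. Nlrp3 was not among the genes tested, so no value is given for it. Gsdmd, the pore-forming protein of pyroptosis, was lower by -0.68, while Casp1, which cleaves it, was at 0.06, 0.12 and -0.26 against -0.13, -0.23 and -0.61 and did not pass. Among cell death regulators, 10 of 29 were lower and 0 higher, with a median of -0.42 that came to -0.26 with the slide as a block. The death receptor and necroptosis genes made up 6 of these out of 13, and the BCL2 family 4 of 16. Ripk3, the kinase that starts necroptosis, was at 1.73, 0.88 and 0.97 in WT+MI and at -0.36, 0.25 and -0.20 in TG+MI (2.46-fold lower, limma adjusted p = 0.0233). Tnfrsf1b, a receptor for TNF, fell 3.35-fold, but its 2 measured probes gave differences of -1.74 and -0.13.

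Among metalloproteases and their inhibitors, 6 of 25 were lower and 0 higher. Mmp9, a gelatinase stored in neutrophils, was at 0.25, -0.99 and -0.62 in WT+MI and at -3.66, -1.82 and -3.97 in TG+MI, a 6.49-fold fall. Mmp8, the neutrophil collagenase, fell 4.05-fold and Adam8, a leukocyte sheddase, 5.73-fold. Timp1, an inhibitor of these proteases, fell from 6.59, 6.39 and 5.93 to 4.76, 5.58 and 3.18. In the coagulation and fibrinolysis group 7 of 15 genes were lower and 1 was higher, with a median of -1.05. F10, which encodes coagulation factor X, was at 3.00, 1.96 and 1.40 against -1.16, 0.57 and -2.59 (9.07-fold lower, limma adjusted p = 0.0303). The urokinase gene Plau fell 2.79-fold, the protein C receptor gene Procr 3.91-fold and Serpinb2, an inhibitor of plasminogen activators, at least 4.65-fold. Complement genes had no shared direction, with 2 higher (C1s1 and Serping1) and 2 lower (C3ar1 and C5ar1) of 15. The 2 lower genes encode receptors carried by myeloid cells.

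Interferon-stimulated genes, induced by type I interferon in infarct macrophages, did not follow the cytokines. Of 33 tested, 1 was higher (Igtp, at 0.64) and 0 lower, with a median of -0.11 (0.22 without TG+MI 3 and WT+MI 1, 0.03 with array weights). For antigen presentation and dendritic cell genes 1 of 19 was lower, the growth factor receptor gene Flt3, with a median of -0.56 that came to -0.01 without TG+MI 3 and WT+MI 1.

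The scar matrix differed gene by gene. Of 20 collagen genes tested, 1 passed: Col14a1, which was not well above background in WT+MI, so that no fold is given, and which had a difference of -0.13 after another background correction. Col1a1, the main scar collagen, was at 2.66, 2.95 and 3.00 in WT+MI and at 3.03, 3.01 and 1.68 in TG+MI. The groups overlapped and only TG+MI 3 was low, and the collagen median moved from -0.32 to 0.01 without TG+MI 3 and WT+MI 1. Of 52 other matrix genes 4 were lower and 3 higher, with a median of -0.18 that became 0.06 with the slide as a block. These shares, 7.69% lower and 5.77% higher, were near the 4.48% and 5.97% of all genes tested. With only genes well above background on all 6 arrays, 2 were lower and 2 higher. Fn1, fibronectin of the provisional matrix, was at 5.84, 5.23 and 4.63 in WT+MI and at 3.44, 4.29 and 2.58 in TG+MI (3.48-fold lower, limma adjusted p = 0.0319). Cthrc1, a protein of activated fibroblasts, fell 4.49-fold and was above background on only 2 TG+MI arrays, while the proteoglycan gene Ogn rose by 0.88 and the glycoprotein gene Fbln1 by 0.85. Postn, which marks activated fibroblasts, was at 1.82, 1.32 and 1.57 against 0.91, 1.24 and 0.77 and did not pass. Of 11 ligand genes of the TGF-beta family 3 were lower and 0 higher. Tgfb1 was at 0.04, -0.23 and -0.23 in WT+MI and at -1.03, -0.70 and -1.06 in TG+MI (1.73-fold lower), Tgfb2 fell 1.91-fold and the activin subunit gene Inhba 3.09-fold.

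Among stress genes, the one for haem oxygenase 1 had a small spread. Hmox1 breaks down the haem of dying red cells and muscle and is induced by oxidative stress. It was at 4.70, 4.55 and 4.74 in WT+MI and at 2.64, 2.82 and 2.64 in TG+MI, against -0.69 ± 0.44 in WT and -0.48 ± 0.31 in TG (SD, n = 3). The fall was 3.91-fold (-1.97 ± 0.21 SE), and its adjusted p was the smallest of the comparison, shared with other genes (limma, 0.0153). In the antioxidant list 6 of 27 were lower and 1 higher; Slc7a11, the cystine importer, was lower but above background on only 1 TG+MI array, so no fold is given, and Gsr, glutathione reductase, fell 2.02-fold, while Gstm1 rose by 0.68. Of 30 genes of the unfolded protein and integrated stress responses 2 were lower, Asns and Psat1, which make asparagine and serine. Immediate early genes gave 0 calls of 32 in either direction (limma, 12 at an unadjusted p under 0.05). Fos was at 2.94, 1.98 and 1.36 in WT+MI and at 0.16, 1.17 and 3.65 in TG+MI. The chaperone gene Hspa1a varied as widely, at 6.11, 5.06 and 2.02 against 2.70, 2.79 and 5.13. Of 19 cardiac stress genes 1 was higher and 1 lower. Nppb, the natriuretic peptide of the strained ventricle, was at 7.35, 7.38 and 7.06 against 6.75, 6.80 and 7.17, and Myh7, the slow myosin, at 5.64, 5.51 and 5.52 against 6.77, 6.06 and 5.69; neither passed, and the other Myh7 probe differed by -0.20.

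Of 54 conduction and ion channel genes tested, 12 were higher in TG+MI and 0 lower, with a median of 0.36 (0.31 with the slide as a block, 0.28 without TG+MI 3 and WT+MI 1). Potassium channels made up 8 of the 12, out of 20 tested, with a median of 0.68. Kcnip2 encodes the subunit that sets the fast transient outward current of the ventricle (probe at mm9 chr19:45868494-45868553). It was at -2.49, -2.08 and -1.63 in WT+MI and at -0.61, -1.34 and 0.02 in TG+MI, a 2.68-fold higher level (1.42 ± 0.34 SE, limma adjusted p = 0.0342). The mean of TG+MI still lay below those of uninfarcted hearts, 0.42 ± 0.34 in WT and 0.12 ± 0.29 in TG (SD, n = 3). TG+MI 3 by itself lay within the SD of TG. Kcnd2, the pore subunit of the same current, was at -0.60, 0.12 and 0.24 against 1.08, 1.23 and 0.98 (2.25-fold higher). Kcnh2, which carries the rapid delayed rectifier current, was at -0.55, -0.17 and -0.07 against 0.82, 0.33 and 1.69 (2.31-fold higher). The 3 genes did not overlap between groups. Kcnj11 and Kcnj12, inward rectifiers, and Kcnk3, a leak channel, rose by 0.85, 1.04 and 1.06.

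Of 18 sodium channel, pacemaker and conduction genes 2 were higher, the sodium channel gene Scn3a by 1.28, with 2 WT+MI arrays above background, and the T-type calcium channel gene Cacna1g by 1.15. Gja1, which encodes the gap junction protein connexin 43, was at 1.57, 1.91 and 2.52 in WT+MI against 2.02, 2.02 and 0.93 in TG+MI, with overlap; its 6 measured probes, of 8, gave differences of -0.39 to 0.01. Calcium handling genes gave 2 of 24 higher (Cacna1g and Asph) and 0 lower, a share near that of all genes, with a median of 0.38 that came to 0.21 without TG+MI 3 or without WT+MI 1 and to 0.13 without both. Atp2a2, the calcium pump of the sarcoplasmic reticulum, was at 6.59, 7.21 and 6.79 against 6.71, 6.45 and 7.18. Its other 2 probes differed by 0.68, without overlap, and by 0.16, so its probes do not share a direction. Its inhibitor Pln was at 4.67, 5.55 and 5.52 against 5.97, 5.66 and 6.31, without overlap but short of the threshold (limma adjusted p = 0.0655). Among contractile genes Mylk3, a myosin light chain kinase gene, was higher, and the median of the list, 0.25, came to 0.05 with the slide as a block and to -0.03 without TG+MI 3 and WT+MI 1.

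**Figure D4:**
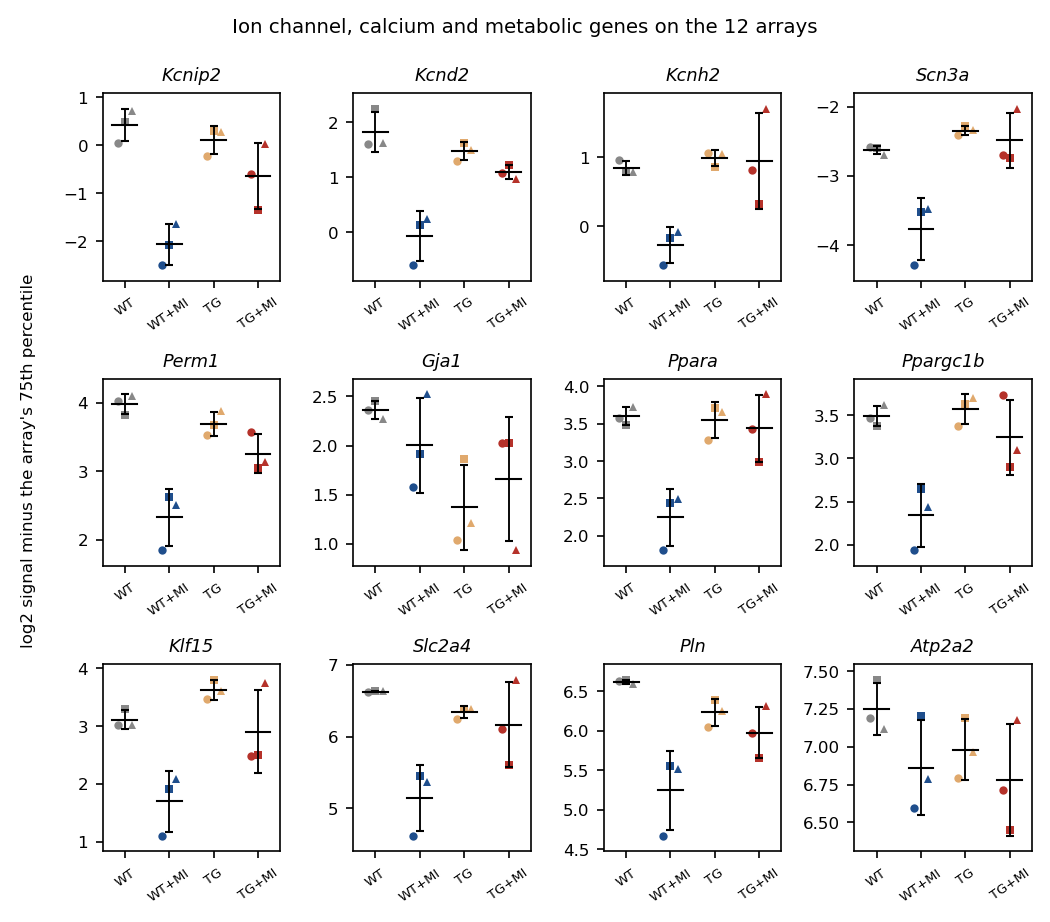
Levels of 12 ion channel, calcium and metabolic genes on the 12 arrays (vertical axis, log2 signal minus the array's 75th percentile; groups along the horizontal axis). Points are arrays with circle, square and triangle for replicates 1, 2 and 3, lines are group means and bars are SDs; Kcnd2 lies at 0.98 to 1.23 in TG+MI and at -0.60 to 0.24 in WT+MI, while Gja1 overlaps.

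Some genes of mitochondrial fuel use were higher in TG+MI. Of 19 ketone and branched-chain amino acid genes 6 were higher and 0 lower, with a median of 0.54 (0.43 with the slide as a block, 0.29 without TG+MI 3 and WT+MI 1). They include Klf15, the transcription factor that drives this programme, at 1.10, 1.90 and 2.08 in WT+MI and 2.47, 2.50 and 3.74 in TG+MI (2.31-fold higher, limma adjusted p = 0.0477), and the enzyme genes Aldh6a1, Bckdhb and Mccc2, which rose by 0.71, 0.61 and 0.75. For the citrate cycle and mitochondrial biogenesis 5 of 23 were higher and 0 lower, with a median of 0.43 (0.25 and 0.18 in those settings). The coactivator gene Ppargc1b was at 1.93, 2.64 and 2.44 against 3.73, 2.90 and 3.099, and Perm1, Esrrb and Esrrg, which encode regulators acting with it, rose by 0.93, 0.88 and 0.77. In fatty acid oxidation 4 of 35 were higher, with a median of 0.34 that came to 0.18 with the slide as a block and to 0.07 without TG+MI 3 and WT+MI 1. Ppara, the nuclear receptor that controls these enzymes, was at 1.81, 2.44 and 2.49 in WT+MI and at 3.42, 2.99 and 3.89 in TG+MI, 2.28-fold higher (1.19 ± 0.24 SE, limma adjusted p = 0.0294), and close to the 3.60 ± 0.12 of WT and 3.55 ± 0.24 of TG (SD, n = 3). The lipid droplet gene Plin5, the thioesterase gene Acot1 and Mlycd, malonyl-CoA decarboxylase, rose by 0.93, 1.17 and 0.67.

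The electron transport chain did not pass: of 45 oxidative phosphorylation genes 0 were called in either direction (limma, 7 at an unadjusted p under 0.05), with a median of 0.15 that turned to -0.03 with the slide as a block and to -0.06 without TG+MI 3 and WT+MI 1. Among glucose genes, Slc2a4, the insulin-responsive glucose transporter, rose 2.03-fold, from 4.62, 5.44 and 5.37 to 6.10, 5.61 and 6.79, and Pfkfb2, a cardiac activator of glycolysis, rose by 1.07. The lactate exporter gene Slc16a3, which is strong in activated leukocytes, fell 3.43-fold, from 4.61, 3.54 and 3.00 to 1.59, 2.30 and 1.93. The glycolysis and hypoxia list as a whole had 2 higher and 2 lower of 33. Resident fibroblast markers gave 1 higher of 14, the ferritin receptor gene Scara5, at -3.56, -2.48 and -2.92 against -1.38, -1.70 and -0.38.

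Several smaller programmes gave few calls. Of 24 cell cycle genes 2 were lower, Mcm3 and Tyms, which serve DNA replication, by -0.85 and -1.05, and 1 was higher, Cdkn1c, an inhibitor of cell division, by 0.98. Of 19 adrenergic and cyclic AMP genes 2 were higher, the alpha adrenergic receptor gene Adra1a by 1.06, with 2 WT+MI arrays above background, and the phosphodiesterase gene Pde4d by 0.63, and 1 was lower, the receptor kinase gene Grk2, by -0.56. The 5 measured probes of Pde4d ran from -0.57 to 0.79 and do not share a direction. Of 22 metallothionein and iron genes 2 were higher, the iron genes Hjv and Steap3, by 0.80 and 0.55, and 1 was lower, the macrophage metal transporter gene Slc11a1, at 1.96, 1.03 and 1.25 in WT+MI and -0.44, 0.51 and -1.05 in TG+MI. The circadian clock list had 0 calls of 17 in either direction (limma, 4 at an unadjusted p under 0.05), with a median of 0.44 that came to 0.10 without TG+MI 3 and WT+MI 1. Among heat shock genes 1 of 23 was lower, Hsp90aa1, a major chaperone, by -0.87, and 1 higher, Hspa4l, by 0.65, although its 4 probes ran from -0.29 to 0.65.

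Markers of other cell types were set beside these results, and their part in the result was not tested. The cardiomyocyte markers of the ventricle had a summed level of 628 to 808 in TG+MI and 629 to 841 in WT+MI, and 0 of 6 were called in either direction (limma, 2 at an unadjusted p under 0.05). The label of heart tissue holds by these genes, and Myh6, the main myosin of the adult mouse heart, was at 8.36, 8.54 and 8.13 in WT+MI and at 8.18, 8.07 and 8.35 in TG+MI, while its other probe differed by 0.67. Endothelial markers summed to 218 to 310 in TG+MI and 242 to 252 in WT+MI. Of 24 tested 3 were lower (Erg, Cldn5 and the peptide gene Apln, at -1.98) and 0 higher. Resident fibroblast markers summed to 320 to 401 against 317 to 378, lymphocyte markers to 1.97 to 2.46 against 1.91 to 2.55 and erythroid markers to 332 to 648 against 424 to 520. Platelet markers summed to 10.1 to 17.5 against 22.9 to 50.4, with 1 of 5 tested lower (Pf4, platelet factor 4, at -1.23).

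Atrial markers varied within both groups and with no shared direction. Sln, an atrial inhibitor of the calcium pump, was at 5.57, -6.14 and -5.67 in WT+MI and at -0.54, 3.70 and -5.49 in TG+MI. The atrial sum ran from 164 to 470 in WT+MI and from 53.2 to 220 in TG+MI. Nppa, the atrial natriuretic peptide that the strained ventricle also makes, was at 7.96, 7.73 and 7.34 against 6.84, 7.34 and 5.66 and did not pass. The lung surfactant genes Sftpa1, Sftpb and Sftpc, the thymus genes Rag1, Ptcra and Foxn1, the epicardial genes Upk3b, Lrrn4 and Muc16 and the fast skeletal myosins Myh1 and Myh2 were above background on none of the 6 arrays.

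**Figure D5:**
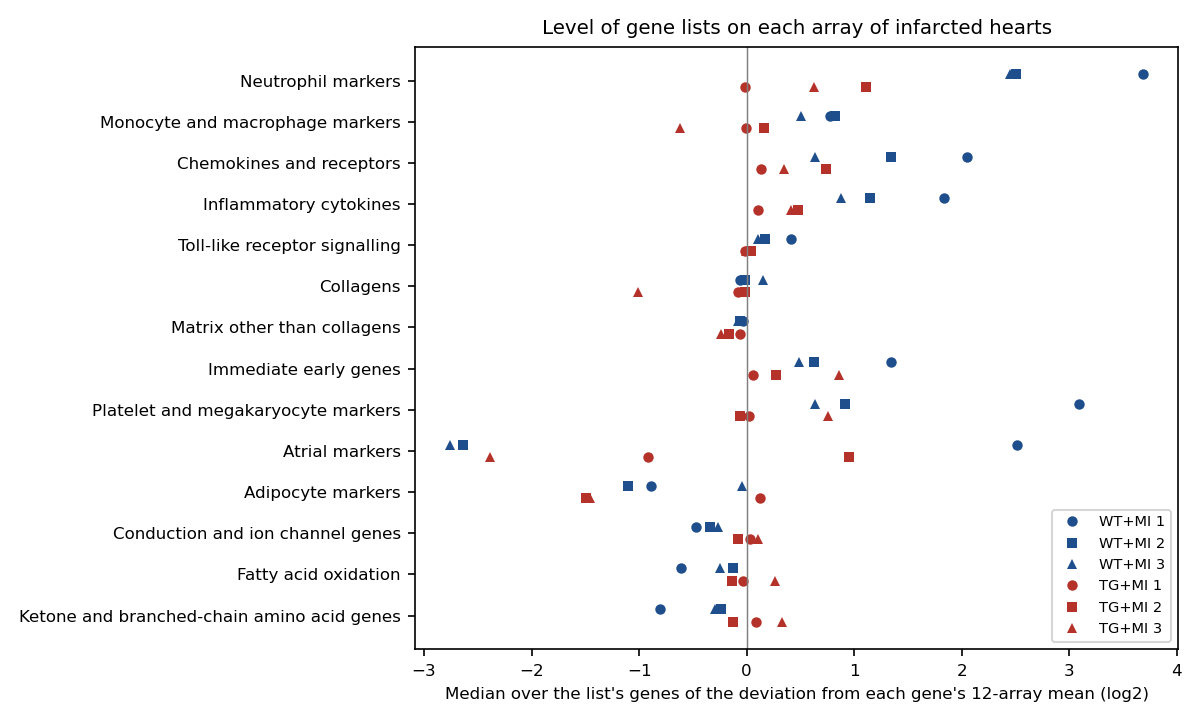
Level of 14 gene lists (rows) on each of the 6 arrays of infarcted hearts; the horizontal axis is the median over a list's tested genes of the deviation from each gene's mean on all 12 arrays (log2). Neutrophil markers lie at 2.45 to 3.69 in WT+MI and at -0.01 to 1.11 in TG+MI, whereas atrial markers spread from -2.76 to 2.51 within WT+MI.

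Among genes with a symbol that were above background on all 6 arrays, the largest rise was at Gt(ROSA)26Sor, the non-coding transcript of the ROSA26 locus (probe at mm9 chr6:113020400-113020459). It was at 2.06, 1.87 and 2.09 in WT+MI and at 4.45, 4.999 and 6.10 in TG+MI, 9.04-fold higher (3.18 ± 0.49 SE, limma adjusted p = 0.0221). In uninfarcted TG hearts it averaged 2.83 (2.226, 4.044 and 2.215) against 1.65 in WT. TG 2 was far above the others, and this difference did not pass (limma adjusted p = 0.237). Its other 2 measured probes gave smaller differences after infarction, 0.76 without overlap and 0.19 with overlap. Without infarction the first of these was at -4.656, -4.757 and -4.886 in TG against -4.64, -4.01 and -4.376 in WT, and the second overlapped. Srgap3, which encodes a regulator of the cell skeleton and lies near this locus on the same chromosome, was 3.69-fold higher after infarction, from -1.58, -2.37 and -2.81 to -0.78, 0.18 and -0.50, and was 1.67 higher in TG than in WT without infarction. Other large rises were in Gbp6, an interferon-induced GTPase (3.50-fold), Lrtm1 (3.36-fold) and Ddc, a decarboxylase of amine synthesis (3.30-fold). Of genes below background in all WT+MI hearts, Ftdc2 was at least 2.23-fold and Slc51a at least 2.15-fold higher. In the other direction, Ankrd22 and Kng1 were below background in all TG+MI hearts and at least 5.17-fold and 4.33-fold lower.

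Whether the difference belongs to infarcted hearts was tested with the interaction of transgene and infarction, which asks if TG+MI minus WT+MI differs from TG minus WT. In hearts without infarction 508 genes differed between TG and WT (2.57%), 275 higher in TG (1.39%) and 233 lower (1.18%). The interaction passed at 1556 genes (7.88%), 962 upward (4.87%) and 594 downward (3.01%). Of the 2066 genes that differed after infarction, the interaction passed at 797, of which 477 were higher and 320 lower in TG+MI. Both tests use the TG+MI minus WT+MI difference, so this overlap is partly built in. Among the 2066, 31 genes also differed in TG against WT in the same direction and 22 in the opposite one. Hmox1 had an interaction of -2.18 (limma adjusted p = 0.0149), and WT and TG differed by 0.21 without infarction. Cxcr2, which was not above background in hearts without infarction, Cd14 and Fn1 had interactions of -3.32, -2.65 and -2.78, and Kcnd2 one of 1.53. For S100a8 the interaction was -0.96 and did not pass (limma adjusted p = 0.350). With the slide as a block the interaction passed at 3 genes, and leaving out single arrays moved its count: 165, 60 and 51 without WT 1, 2 and 3, 131 and 148 without TG 1 and TG 2, 355 and 555 without WT+MI 1 and 2, and 61, 2678 and 773 without TG+MI 1, 2 and 3.

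Some genes differed between TG and WT in the direction opposite to that after infarction. Inhba was 2.02 higher in TG than in WT and 1.63 lower in TG+MI than in WT+MI. Fos was 4.34 higher in TG (limma adjusted p = 0.0156) and -0.43 apart after infarction, and Nppa was 2.81 higher in TG and -1.06 apart after infarction. Of the 32 immediate early genes 10 passed the interaction, of 52 matrix genes 20 and of 20 collagen genes 6. For collagens the TG hearts without infarction had a median of 0.85 above WT. The atrial and adipocyte markers had TG minus WT medians of 6.12 over 8 genes and 3.39 over 9 genes. They moved with these groups, and their part in the result was not tested. In TG+MI against WT+MI the medians were -0.03 and -0.003, and adipocyte markers summed to 114 to 185 in TG+MI and 111 to 128 in WT+MI.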

How the data were processed

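Total RNA of 12 mouse heart samples was measured on Agilent 1-colour (Cy3) gene expression arrays, 1 array a sample, in 4 groups of 3 taken from the labels. Per the file headers, spot intensity was read and background-subtracted with Feature Extraction 12.0.3.1, and the processed intensity was deposited on a linear scale, not normalized between arrays. Probe positions are mm9. The authors also deposited a log2 value table whose columns share a median near 4.23; its normalization is not given in the sources used here. Among tools, limma is named in the submitters' processing notes.

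The deposited intensity was taken to log2 and the 75th percentile of each array over non-control spots was subtracted. Outlier spots were left out, which dropped 49 of 56605 probes, spots of a probe were averaged, and each gene was represented by its brightest probe. Testing required 1 group or more in which all 3 arrays had that probe well above background. The main test was limma 3.58.1 (R 4.3.3) over the 4 groups, with Benjamini-Hochberg adjustment over 19755 genes and a threshold of 0.05. The design was tested on simulated data with independent noise between arrays and no slide effect. That simulation therefore cannot show how the slide or single arrays act on the counts. The number of arrays limits the precision.

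Genes named include the 15 with the largest difference each way among genes with a symbol above background on all 6 arrays without overlap. They also include the 5 with the largest bound each way and a set of anchor genes. From each of 47 gene lists, except the sex-linked genes, up to 4 called members each way were named. Where none was called, the member with the largest difference was named. Further list members are named only to account for a count, and were chosen after their values were seen. The comparison, lists and anchors were chosen with earlier results of these data known. Alternatives changed the background correction, scaling, filter, probe choice, slide or replicate block, weights, and left out each array in turn. Promoter windows are from RefSeq (GRCm38.p6).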

Additional observations from a re-analysis of the deposited data

Results flagged for a closer look

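The transgene difference was not the same in infarcted and uninfarcted hearts at 1556 genes, 7.88% of those tested (limma interaction test, adjusted p under 0.05). Of the 131 genes named above by the rule for named genes, 46 are among them. Genes were named largely for their TG+MI minus WT+MI difference, which is a term of the interaction. A share above that of all genes is therefore partly built in. The values that follow are interactions, TG+MI minus WT+MI less TG minus WT, on the log2 scale, and with the slide as a block 0 of these 46 passed (limma adjusted p between 0.129 and 0.296).

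Among neutrophil and monocyte genes the interaction was -3.32 for Cxcr2, -3.83 for Stfa1, -3.92 for Cstdc4, -3.21 for Fpr1, -3.62 for Mirt2, -3.12 for Clec4e, -2.83 for Adam8 and -1.86 for Slc11a1. Among cytokine, chemokine and TLR genes it was -2.79 for Il1b, -2.65 for Cxcl2, -2.65 for Cd14, -1.83 for Tlr13, -1.95 for Nfkbia and -1.998 for Tnfrsf1b. Among coagulation and protease genes it was -4.43 for F10, -3.00 for Procr, -3.30 for Serpinb2, -5.72 for Kng1 and -3.02 for Timp1.

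Matrix and growth factor genes with an interaction were Fn1 (-2.78), Cthrc1 (-3.67), Postn (-1.84), Spp1 (-7.10), Inhba (-3.65) and Tgfb2 (-1.13). For Postn, Spp1, Fos (-4.77), Nppa (-3.87) and Nfkbia the difference after infarction did not itself pass. The stress and metabolic genes Hmox1, Slc7a11, Slc16a3 and Psat1 had interactions of -2.18, -2.69, -2.58 and -1.99, and Cldn5 and Ankrd22 of -0.92 and -4.43.

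Upward interactions were 1.53 for Kcnd2, 1.19 for Aldh6a1, 1.06 for Bckdhb, 1.44 for Esrrb, 1.22 for Perm1, 1.42 for Pfkfb2, 1.03 for Gstm1, 0.98 for Pde4d, 1.10 for Cdkn1c, 1.93 for Scara5, 1.13 for Hjv, 2.43 for Lrtm1 and 1.66 for Ftdc2.

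For 15 of these 46 genes at least 1 of the 4 groups had 0 arrays above background, so the interaction is set partly by values at the floor and is not a measured size. They are Ankrd22, Clec4e, Cstdc4, Cthrc1, Cxcl2, Cxcr2, F10, Fpr1, Ftdc2, Il1b, Kng1, Mirt2, Serpinb2, Slc7a11 and Stfa1. Among them Ankrd22, Kng1, Serpinb2 and Stfa1 were below background on all TG+MI arrays and Ftdc2 on all WT+MI arrays. Kng1 was at -2.28 in TG 1 and near the floor in the other TG arrays.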

How the results depend on the processing

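The count of genes that differ between TG+MI and WT+MI, 2066 in the fit as reported, was 3239 with median centring, 3954 with the slide as a random block, 7901 with array weights, 21 with no filter on dim probes, 1 with only the 6 arrays of infarcted hearts, 0 with the slide as a fixed block (limma, 1464 at an unadjusted p under 0.05), 3 without both TG+MI 3 and WT+MI 1 (chosen after seeing the data), and between 0 and 3428 when single arrays were left out. The interaction count, 1556, was 6611 with array weights, 3 with the slide as a fixed block, 52 with no filter, 638 without both those arrays, and between 51 and 2678 when single arrays were left out. Quantile normalization, normexp background correction and the authors' value table gave 2561, 2670 and 2685 genes, and the interaction counts were 1600, 1073 and 1749. Same-numbered TG+MI and WT+MI arrays did not deviate together (correlations -0.26, -0.22 and -0.06), and those of other group pairs had correlations of either sign. With 3 arrays a group this cannot settle whether the numbers pair samples. With a replicate block 1610 genes passed (interaction 1042), and with that block on only the 6 arrays 0 passed (limma, 3403 at an unadjusted p under 0.05). Of the named genes that passed the test, Col14a1 alone changed sign in any of these settings, to -0.13 with normexp. Those genes were chosen on these same arrays, so a kept sign is no independent check. Probes near background set the limit for genes that uninfarcted hearts or one infarcted group do not express. The cause of these changes was not tested.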

Other observations

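Genes around the ROSA26 locus were looked at after the values of Gt(ROSA)26Sor had been seen. Of 38 tested genes within 1 Mb of its probe on mm9 chromosome 6, 7 were higher and 2 lower in TG+MI than in WT+MI. The 7 include Gt(ROSA)26Sor itself and Srgap3. Without infarction, 4 of the 38 differed between TG and WT. Over all genes tested, 5.97% were higher and 4.48% lower after infarction, and 2.57% differed between TG and WT. Setd5, a chromatin regulator gene next to the locus, was at 3.27, 3.27 and 3.11 in WT+MI and at 3.85, 3.84 and 4.00 in TG+MI. It was at 3.09, 3.12 and 3.01 in WT and at 3.78, 3.84 and 3.81 in TG, whose arrays lie on both slides. The transcripts named AK076574 and AK042057 in the files were higher in TG than in WT by 0.78 and 1.83 and higher in TG+MI than in WT+MI by 0.84 and 0.80. The neighbouring gene Thumpd3 did not pass either test, at -0.31 after infarction and -0.16 without (limma adjusted p = 0.283 and 0.702).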
